A study of Mus musculus with 23 samples.

Results

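A set of 10 receptor genes of macrophages were followed across 6 groups of BMDM (bone marrow-derived macrophages): the scavenger receptors Olr1, Msr1, Marco, Cd36, Scarb1 and Stab1, and the C-type lectin receptors Mrc1, Clec4e, Clec4d and Clec7a. The genes were chosen as a named list of receptors, with earlier results of these data known. An array probe was assigned to a gene by its transcript accession. A probe was assigned to 9 of the 10 genes, out of 25998 genes tested, and Clec7a was not analysed here. Msr1 and Scarb1 had 2 probes each and the other genes 1, so that 11 probes were read. The signal was well above background on all 23 arrays for 8 of the 9 genes, Olr1 being the exception.

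Scavenger receptors bind modified lipoproteins, bacterial surfaces and dying cells and carry them into the macrophage. The C-type lectins Clec4e (Mincle) and Clec4d (MCL) bind glycolipids of mycobacteria and fungi and signal through the Fc receptor gamma chain, the kinase Syk and the Card9, Bcl10 and Malt1 complex, whereas Mrc1, the mannose receptor, mainly takes up glycoproteins. LPS, the lipopolysaccharide of gram-negative bacteria, is sensed by TLR4 and activates, among others, the p38 pathway, in which the kinases MK2 and MK3 (genes Mapkapk2 and Mapkapk3) act downstream of p38.

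The cells were grown with M-CSF from the bone marrow of male C57BL/6 mice (C57BL/6J in the study's methods) of 3 genotypes: wild-type (wt), MK2-deficient (MK2-/-) and deficient in both MK2 and MK3 (MK2/3-/-). Mice were 12 to 13 weeks old for wt, 10 to 13 weeks for MK2-/- and 11 to 14 weeks for MK2/3-/-. Cells of each genotype were kept in medium or given 100 ng/ml LPS for 120 min, with 4 arrays a group and 3 for MK2-/- in medium. MK3-deficient cells with intact MK2 were not analysed here, and both deficiencies are germ-line, so that the cells also lacked the kinases while they differentiated. The 3 genotypes lay on 3 slides, and genotype and slide cannot be told apart. Medium and LPS arrays lay in different rows of each slide, so that position and treatment cannot be told apart either.

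Values are log2 of the background-subtracted signal after quantile normalization and compare groups within a probe, not genes with each other. Between 47.5% and 69.1% of the probes of an array were well above background, both extremes being MK2/3-/- arrays in medium (replicates 1 and 2), and the other arrays lay between 48.5% and 60.8%. The Mapkapk2 signal in medium was 12.22 ± 0.51 in wt (SD, n = 4), 8.91 ± 0.17 in MK2-/- (n = 3) and 8.72 ± 0.16 in MK2/3-/- cells (n = 4), and after LPS it was 14.77 ± 0.49, 11.96 ± 0.28 and 11.76 ± 0.34 (n = 4 each). The deficient cells were thus lower than wt cells of the same treatment, but after LPS they reached about the medium level of wt. Mapkapk3 was 13.50 ± 0.28, 13.74 ± 0.14 and 11.88 ± 0.22 in medium and 14.01 ± 0.24, 13.98 ± 0.14 and 10.70 ± 0.26 after LPS. All 7 measured macrophage markers were well above background on all 23 arrays. In bulk RNA, fewer cells of a type and less RNA per cell cannot be told apart.

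Promoter sequence from RefSeq (GRCm38.p6) was at hand for 8 of the 10 genes, 7 of them measured. The 3 promoters shown belong to the receptors with a sequence whose transcripts rose in wt BMDM, and give the 250 bases before the transcript start, 5′ to 3′ on the strand of the gene. Capitals mark letters that match a motif searched on both strands: AP-1 (TGANTCA), PU.1 (GAGGAA), C/EBP (TTGCNNAA), the antioxidant response core (TGANNNNGC) and the TATA box (TATAAA). NF-kB was searched on both strands as well, by consensus letters that are not printed here. The AP-1 letters and the antioxidant core begin alike and can overlap.
Olr1, chr6:129507166-129507415, minus strand: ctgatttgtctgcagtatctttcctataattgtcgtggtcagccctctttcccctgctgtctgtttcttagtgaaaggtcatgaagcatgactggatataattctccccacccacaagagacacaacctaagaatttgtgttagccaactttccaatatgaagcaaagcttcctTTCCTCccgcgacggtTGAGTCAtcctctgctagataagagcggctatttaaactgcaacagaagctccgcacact
Clec4e, chr6:123289872-123290121, minus strand: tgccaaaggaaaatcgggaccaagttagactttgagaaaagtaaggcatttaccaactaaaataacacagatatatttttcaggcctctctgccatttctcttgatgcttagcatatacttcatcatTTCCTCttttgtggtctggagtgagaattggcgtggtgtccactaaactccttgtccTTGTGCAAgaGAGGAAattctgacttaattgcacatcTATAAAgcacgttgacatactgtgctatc
Clec4d, chr6:123261857-123262106, plus strand: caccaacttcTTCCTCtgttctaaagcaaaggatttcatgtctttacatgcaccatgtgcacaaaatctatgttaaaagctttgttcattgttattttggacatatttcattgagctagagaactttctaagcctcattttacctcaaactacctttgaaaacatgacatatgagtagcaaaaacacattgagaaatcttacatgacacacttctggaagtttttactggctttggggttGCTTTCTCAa
The Olr1 window held an AP-1 match from base -60 to base -54, counted from the start, and a PU.1 match, and the Clec4e window a C/EBP match from base -66 to base -59, 2 PU.1 matches and a TATA box. The Clec4d window held the antioxidant core from base -10 to base -2 and a PU.1 match, with 2 more PU.1 matches in the 50 bases after the start. Among the other measured receptors, the windows held 3 PU.1 matches for Mrc1, 1 for Marco, 1 for Stab1 and 0 for Cd36. Over all 32851 promoter windows of 300 bases, 7.81% held an AP-1 match, 10.8% a C/EBP match, 28.3% a PU.1 match, 41.3% the antioxidant core, 13.6% a TATA box and 4.51% an NF-kB match. None of the windows of the 7 measured genes held an NF-kB match, which says only that these letters are absent from this window. A match is a description of letters, not of a site in use. Clec4d and Clec4e are neighbours on chromosome 6, with no protein-coding gene between them, whereas 107 lie between Clec4e and Olr1.

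The first comparison asked which receptor transcripts responded to 120 min of LPS. In wt BMDM, Olr1, Clec4e, Msr1 and Clec4d rose and no receptor fell. In MK2-/- and MK2/3-/- BMDM, Olr1, Clec4e and Msr1 rose, and none fell. With limma and Benjamini-Hochberg adjustment over all genes, 4 of 9 receptors were thus called higher in wt against a background of 8.26% of all genes, 3 of 9 in MK2-/- against 8.50% and 3 of 9 in MK2/3-/- against 11.9%. None of the 9 was called lower, where 8.89%, 10.1% and 13.0% of all genes were. The 2 sets are unlike: 8 of the 9 receptors were well above background on all arrays, compared to 12568 of the 25998 genes. The receptors were also listed with earlier results of these data known, so the counts beside these shares are a description and not a test. The median difference over the 9 genes was 0.84, 0.52 and 0.30 on the log2 scale in wt, MK2-/- and MK2/3-/-, compared to 0.005, -0.011 and -0.024 over all genes. Each median over the 9 genes is the value of a single gene: Marco in wt, Clec4d in MK2-/- and Mrc1 in MK2/3-/-. None of those differences passed the adjustment, so the medians are not read as a response of the set. Medium and LPS arrays of a genotype that carry the same number are called a culture here, and 11 cultures had both arrays. The MK2-/- medium array titled replicate 3 was read as number 4, so that MK2-/- culture 3 had no medium array.

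**Figure D1:**
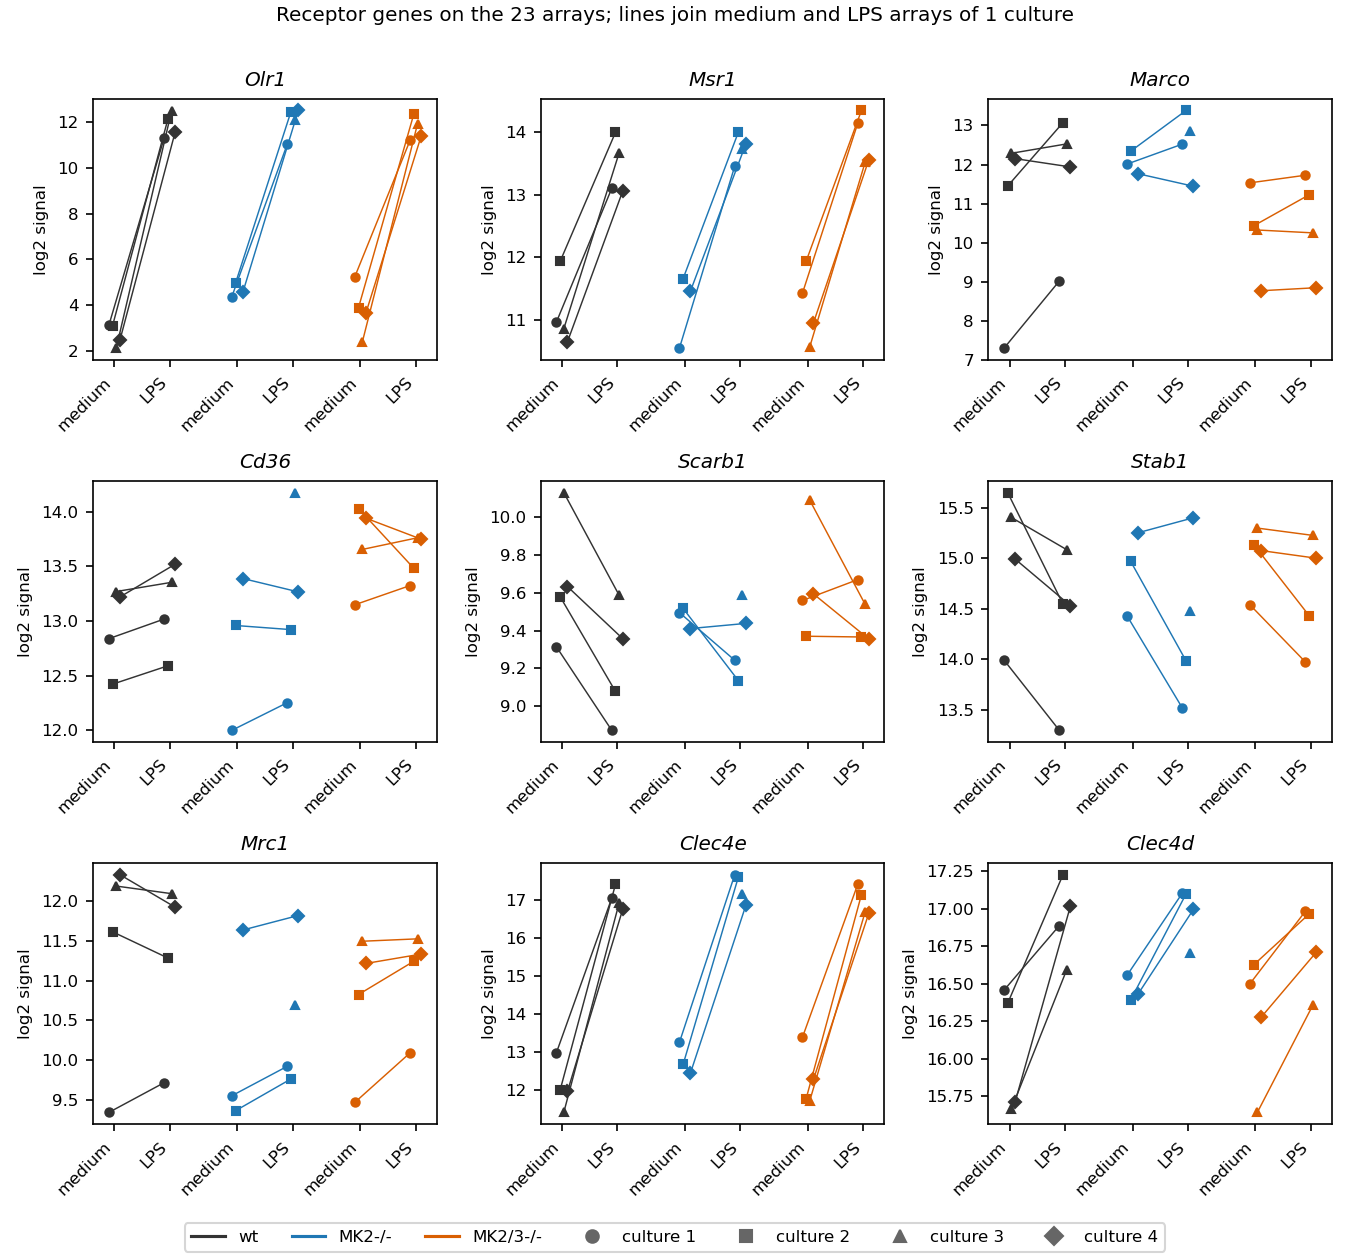
Log2 signal (vertical axes, a scale of its own for each gene) of the 9 receptor genes on the 23 arrays, by genotype (colour) and treatment, with a marker shape for each culture and lines joining the medium and LPS arrays of 1 culture. The lines for Olr1, Clec4e, Msr1 and Clec4d climb in all 11 cultures, while those for Marco, Mrc1 and Stab1 start from medium signals that lie between 7.30 and 12.34, 9.34 and 12.33, and 13.99 and 15.65.

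Olr1, the lectin-like receptor for oxidized low-density lipoprotein (LOX-1), had the largest LPS response of the 9 genes. In wt BMDM, its log2 signal in medium was 3.13, 3.11, 2.13 and 2.48 in cultures 1 to 4, and after LPS it was 11.30, 12.11, 12.47 and 11.57. In MK2-/- BMDM, it was 4.38, 4.97 and 4.58 in medium in cultures 1, 2 and 4, and 11.02, 12.43, 12.06 and 12.49 after LPS in cultures 1 to 4. In MK2/3-/- BMDM, the signal was 5.25, 3.90, 2.38 and 3.67 in medium, and 11.21, 12.35, 11.91 and 11.39 after LPS. Medium and LPS arrays did not overlap in any genotype, and the spread among genotypes was on the medium side. The medium signal lay at the edge of detection: none of the 4 wt arrays was well above background, compared to 3 of 3 for MK2-/- and 2 of 4 for MK2/3-/-. For a cautious fold in wt, the dim arrays (mean 2.71) were set to a floor, the lowest signal that is well above background. Their own signal was kept where that was higher (mean 3.46). The rise was then 339.6-fold on this scale, which is no lower bound under another background correction. The fitted log2 difference in wt, without that floor, was 9.15 (SE 0.47, limma adjusted p = 4.23e-11). It was 7.36 in MK2-/- (SE 0.51, adjusted p = 3.26e-09, 164-fold) and 7.91 in MK2/3-/- (SE 0.47, adjusted p = 3.15e-10), where 2 of the 4 medium arrays were not well above background, so that no fold is given. With another background correction (normexp), the 3 differences were 5.68, 5.51 and 5.30, so the sizes hang on how dim medium signals are treated.

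Clec4e, the inducible glycolipid receptor Mincle, rose in all 3 genotypes. In wt BMDM, the signal was 12.98, 11.99, 11.41 and 11.96 in medium and 17.04, 17.40, 16.91 and 16.75 after LPS in cultures 1 to 4. MK2-/- BMDM had 13.25, 12.67 and 12.44 in medium (cultures 1, 2 and 4) and 17.65, 17.60, 17.15 and 16.85 after LPS. MK2/3-/- BMDM had 13.38, 11.76, 11.72 and 12.28 in medium and 17.40, 17.13, 16.67 and 16.64 after LPS. No LPS array overlapped a medium array, and culture 1 was the highest in medium in each genotype. The log2 difference was 4.94 in wt (SE 0.35, adjusted p = 4.58e-09, 30.7-fold), 4.53 in MK2-/- (SE 0.38, adjusted p = 4.89e-08) and 4.68 in MK2/3-/- (SE 0.35, adjusted p = 7.7e-09). Across the 11 cultures the difference ranged from 4.02 to 5.50.

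Msr1, the class A scavenger receptor SR-A, also rose in each genotype. In wt BMDM, its signal was 10.97, 11.93, 10.86 and 10.65 in medium and 13.10, 13.99, 13.67 and 13.06 after LPS. For MK2-/- BMDM, the values were 10.55, 11.66 and 11.46 in medium (cultures 1, 2 and 4) and 13.45, 14.00, 13.72 and 13.80 after LPS. For MK2/3-/- BMDM, they were 11.42, 11.93, 10.57 and 10.96 in medium and 14.14, 14.34, 13.51 and 13.55 after LPS. All LPS arrays lay above all medium arrays of their genotype. The log2 difference was 2.35 in wt (SE 0.33, adjusted p = 3.65e-05), 2.52 in MK2-/- (SE 0.36, adjusted p = 3.63e-05) and 2.66 in MK2/3-/- (SE 0.33, adjusted p = 5.53e-06), which is 5.10-, 5.74- and 6.34-fold. The second Msr1 probe, tested among all probes, rose as well, by 1.38 (adjusted p = 0.00357), 1.83 (adjusted p = 0.000558) and 1.73 (adjusted p = 0.000322).

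Clec4d, the partner receptor of Clec4e, had a smaller response. In wt BMDM, the signal was 16.46, 16.37, 15.67 and 15.71 in medium and 16.89, 17.23, 16.59 and 17.02 after LPS. MK2-/- BMDM had 16.56, 16.39 and 16.43 in medium (cultures 1, 2 and 4) and 17.10, 17.10, 16.71 and 17.00 after LPS. MK2/3-/- BMDM had 16.50, 16.63, 15.64 and 16.28 in medium and 16.98, 16.97, 16.36 and 16.71 after LPS. The signal was higher after LPS in all 11 cultures, by 0.34 to 1.31, although medium and LPS arrays of MK2/3-/- BMDM overlapped. The difference of 0.88 in wt (SE 0.22) passed the adjustment (adjusted p = 0.00841, 1.84-fold). Those of 0.52 in MK2-/- (SE 0.24, adjusted p = 0.162) and 0.49 in MK2/3-/- (SE 0.22, adjusted p = 0.123) did not. With cultures as random blocks, the MK2/3-/- difference passed (adjusted p = 0.0497, background 14.8% higher) and the MK2-/- difference did not (adjusted p = 0.0626). With the replicate number shared across genotypes as the block, both passed, MK2-/- with 0.65 (adjusted p = 0.00251, background 9.99% higher) and MK2/3-/- with 0.49 (adjusted p = 0.00764, background 13.7% higher). The difference between the responses was itself tested, and was -0.36 for MK2-/- against wt (95% confidence interval -1.05 to 0.32) and -0.39 for MK2/3-/- against wt (-1.05 to 0.27), both with adjusted p = 1.00. A smaller Clec4d response in the deficient cells was therefore not shown. Scaling to the 75th percentile of each array raised the differences to 0.90 and 0.87, both past the adjustment, where 9.10% and 11.7% of all genes were called higher.

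**Figure D2:**
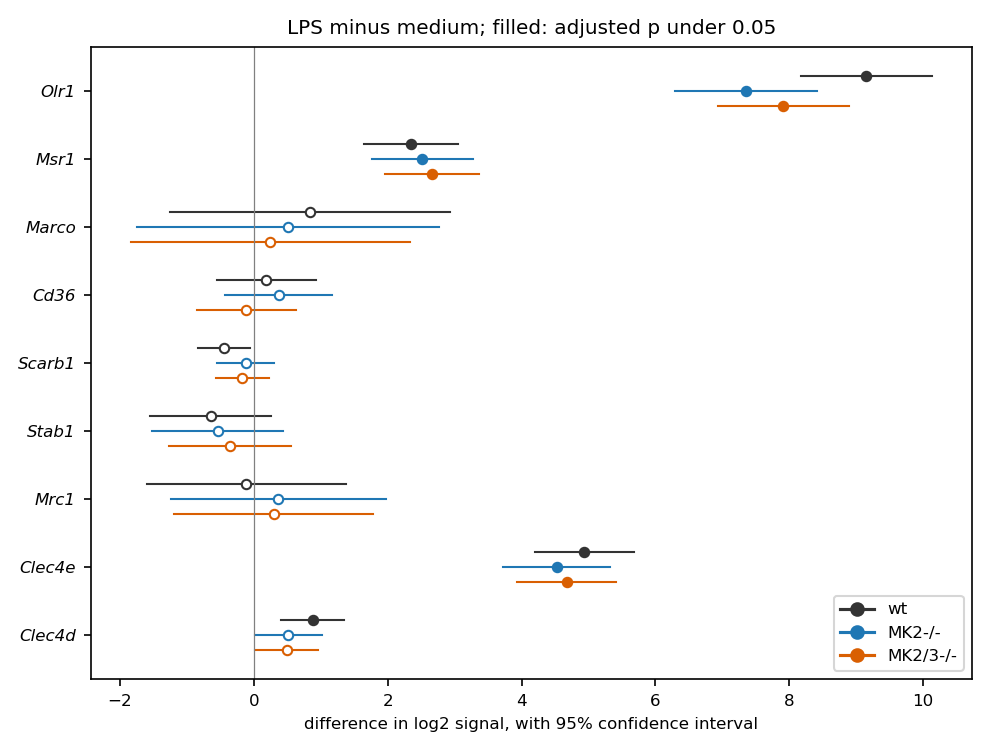
Difference in log2 signal between LPS and medium (horizontal axis, with 95% confidence interval from limma) for the 9 receptor genes in wt, MK2-/- and MK2/3-/- BMDM, with filled circles where the adjusted p was under 0.05. Olr1, Clec4e and Msr1 lie to the right of 0 in the 3 genotypes, Clec4d is filled in wt alone, and the circles of the other 5 genes are open, the widest being those of Marco.

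The remaining 5 receptors did not pass the adjustment in any genotype. Scarb1, the receptor for high-density lipoprotein (SR-B1), had differences of -0.44 (adjusted p = 0.126), -0.12 and -0.17 in wt, MK2-/- and MK2/3-/-, and its signal was lower after LPS in 9 of 11 cultures. In wt, the 4 medium arrays had 9.31, 9.58, 10.13 and 9.63 and the LPS arrays of the same cultures 8.87, 9.08, 9.59 and 9.36. Within each wt culture the signal was lower after LPS, although the 2 groups overlapped. With cultures as random blocks the wt difference passed (adjusted p = 0.0494), where that fit called 11.7% of all genes lower and 10.3% higher in wt. With the replicate number as the block it passed as well (adjusted p = 0.0249, background 12.3% lower). The second Scarb1 probe was lower in 11 of 11 cultures and did not pass either, with differences of -0.50, -0.31 and -0.44 (adjusted p = 0.143, 0.443 and 0.172).

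Cd36, the class B receptor for long-chain fatty acids and oxidized lipoprotein, had differences of 0.18, 0.37 and -0.11 in wt, MK2-/- and MK2/3-/- (adjusted p = 0.837, 0.601 and 0.879). The MK2-/- value rested on the LPS array of culture 3, which had 14.17 and no medium array: without it the difference was 0.03 (adjusted p = 0.986). Over the 11 cultures, its difference ranged from -0.55 to 0.30. None of the alternative settings called a Cd36 response. The wt confidence interval of -0.56 to 0.92 bounds the change on the log2 scale.

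Marco, Mrc1 and Stab1 were the most variable of the 8 receptors that were well above background throughout. The pooled SD within groups was 1.48 for Marco, above that of 99.6% of the 12568 genes that were well above background on all arrays. For Mrc1 it was 1.05 (98.1%) and for Stab1 0.64 (90.1%), against a median SD of 0.31 over those genes. Clec4d at 0.32 (50.8%) and Scarb1 at 0.26 (34.5%) were near or below the middle.

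Marco is a class A scavenger receptor with a collagenous domain that binds bacteria and particles. In wt BMDM, its signal was 7.30, 11.45, 12.29 and 12.15 in medium and 9.02, 13.07, 12.53 and 11.94 after LPS in cultures 1 to 4. MK2-/- BMDM had 12.01, 12.34 and 11.76 in medium (cultures 1, 2 and 4) and 12.52, 13.38, 12.87 and 11.44 after LPS. MK2/3-/- BMDM had 11.53, 10.43, 10.33 and 8.77 in medium and 11.73, 11.22, 10.25 and 8.85 after LPS. Culture 1 of wt and culture 4 of MK2-/- and of MK2/3-/- were the lowest of their genotypes both in medium and after LPS. The LPS difference was 0.84 in wt (SE 1.00, adjusted p = 0.688), 0.52 in MK2-/- (adjusted p = 0.838) and 0.25 in MK2/3-/- (adjusted p = 0.909), and 8 of 11 cultures were higher after LPS. Without the wt medium array of culture 1, the wt difference was -0.32 (adjusted p = 0.878).

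Mrc1 signal in wt BMDM was 9.34, 11.61, 12.19 and 12.33 in medium and 9.72, 11.28, 12.09 and 11.92 after LPS. MK2-deficient cells had 9.55, 9.36 and 11.64 in medium (cultures 1, 2 and 4) and 9.92, 9.76, 10.69 and 11.82 after LPS. Cells deficient in both kinases had 9.47, 10.82, 11.49 and 11.21 in medium and 10.09, 11.24, 11.52 and 11.33 after LPS. Culture 1 was the lowest of wt and of MK2/3-/- in both conditions. The LPS differences of -0.12, 0.36 and 0.30 in wt, MK2-/- and MK2/3-/- did not pass (adjusted p = 0.966, 0.839 and 0.833). The signal was higher after LPS in 1 of 4 wt, 3 of 3 MK2-/- and 4 of 4 MK2/3-/- cultures, and the test of the difference between responses gave 0.48 for MK2-/- against wt (95% confidence interval -1.71 to 2.67) and 0.41 for MK2/3-/- against wt (-1.69 to 2.51).

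Stab1, the class H scavenger receptor stabilin-1, had a signal of 13.99, 15.65, 15.40 and 14.99 in wt medium and of 13.30, 14.55, 15.09 and 14.53 after LPS. In MK2-/- cells it was 14.43, 14.97 and 15.25 in medium (cultures 1, 2 and 4) and 13.52, 13.99, 14.47 and 15.40 after LPS. In MK2/3-/- cells it was 14.54, 15.14, 15.30 and 15.08 in medium and 13.97, 14.43, 15.23 and 15.00 after LPS. Culture 1 was the lowest in each genotype, in medium and after LPS. The signal was lower after LPS in 10 of 11 cultures, the exception being MK2-/- culture 4, and the differences of -0.65, -0.54 and -0.35 did not pass (adjusted p = 0.391, 0.515 and 0.637; with cultures as random blocks 0.225, 0.352 and 0.504).

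**Figure D3:**
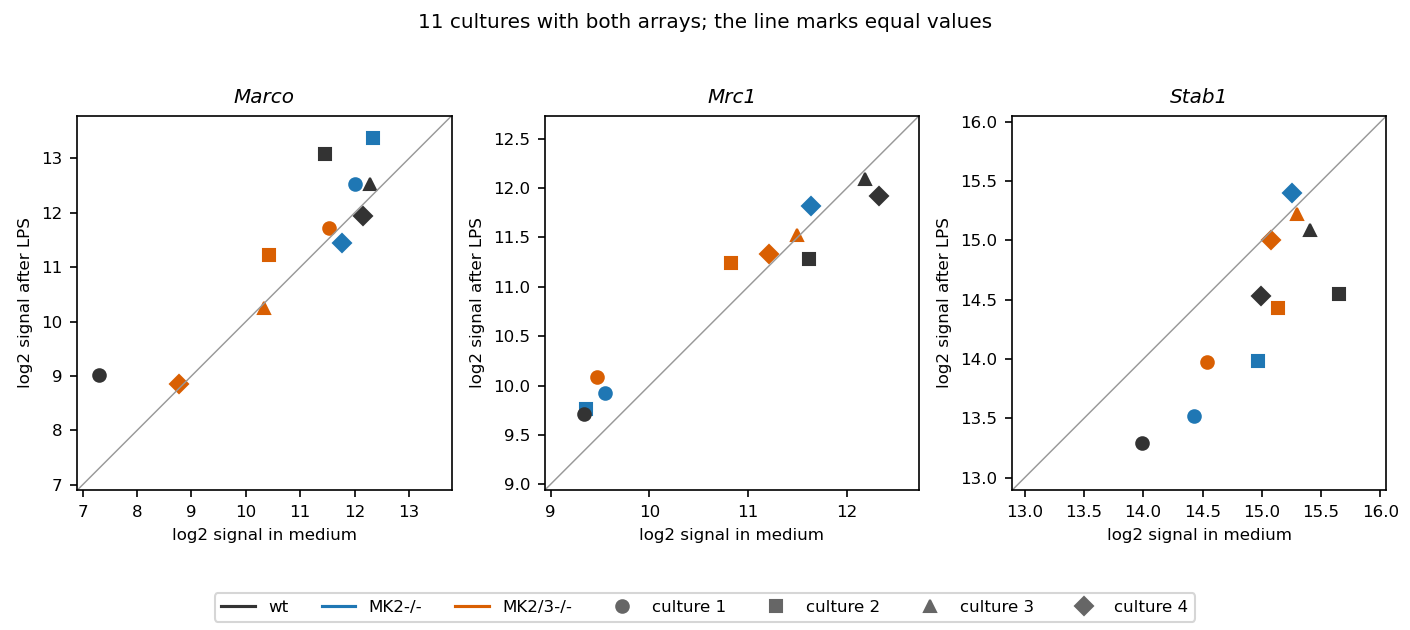
Log2 signal after LPS (vertical axis) against log2 signal in medium (horizontal axis) for Marco, Mrc1 and Stab1, with 1 point for each of the 11 cultures with both arrays and a line at equal values. The points follow the line over a range of 7.30 to 12.34 in medium for Marco, and 10 of 11 Stab1 points lie under it.

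Markers of other cells also differed between cultures. Of 5 stromal markers (Col1a1, Col1a2, Dcn, Lum and Pdgfrb), 2 were well above background on all arrays and Lum on none. Their summed signal in medium was, on the log2 scale, 16.68, 12.13, 14.26 and 15.12 in wt cultures 1 to 4, 11.20, 10.29 and 15.07 in MK2-/- cultures 1, 2 and 4, and 9.03, 10.90, 13.32 and 15.83 in MK2/3-/- cultures 1 to 4. The lowest Marco signals of each genotype, in wt culture 1 and in culture 4 of MK2-/- and of MK2/3-/-, thus lay in the cultures with the highest stromal sum of that genotype in medium. Stab1 was lowest in culture 1 of each genotype, where the stromal sum was highest in wt and lowest in MK2/3-/-. Mrc1 in medium was lowest in wt culture 1, with the highest stromal sum. In the deficient genotypes it was lowest in MK2-/- culture 2 and MK2/3-/- culture 1, with the lowest stromal sum. Of 9 neutrophil markers, 8 were measured and 5 were well above background on all arrays, with sums of 11.56 to 14.20, the highest in culture 2 of each genotype in medium. Of 5 dendritic cell markers, 1 was well above background on all arrays, and their sum lay between 6.28 and 9.83 in medium and between 10.38 and 11.38 after LPS. Since it differed by treatment after 120 min, the dendritic sum is not read as a number of cells. The part of these cells in the receptor signals was not tested.

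The second question was whether MK2 and MK3 deficiency changed the receptor transcripts. None of the 9 receptors passed the adjustment in any of the 3 genotype pairs after LPS, the 3 pairs in medium or the 3 tests of the difference between LPS responses. After LPS, the share of all genes called was 0.0308% for MK2-/- against wt. It was 1.64% for MK2/3-/- against wt, and 0.162% when the MK2/3-/- cells were set against MK2-/-. In medium, the shares in this order were 0.00769%, 0.0769% and 0.0462%. For the difference between LPS responses, they were 0.00385%, 0.0115% and 0%. In the last, 748 of 25998 genes had an unadjusted limma p under 0.05, a share that is itself below 0.05. With backgrounds this low, 0 of 9 receptors is not a result about the receptors. At an unadjusted limma p under 0.05 there was no receptor after LPS. In medium there were Olr1 (MK2-/- and MK2/3-/- against wt) and Cd36 (MK2/3-/- against wt and against MK2-/-). For the LPS response there was Olr1 (MK2-/- against wt). The share of all genes at this unadjusted threshold is not given for the comparisons that name Olr1 or Cd36. They are therefore not read as results about the receptors.

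**Figure D4:**
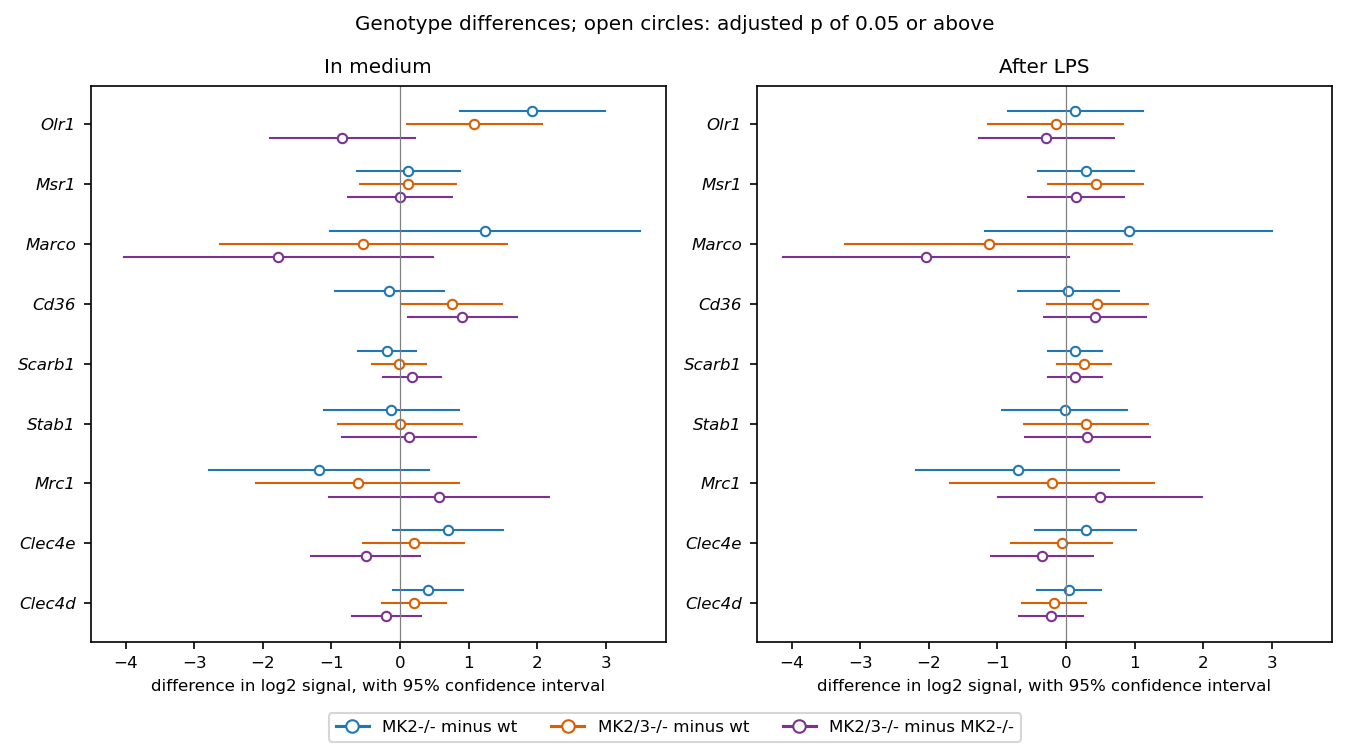
Difference in log2 signal (horizontal axis, with 95% confidence interval from limma) between genotypes for the 9 receptor genes in medium and after LPS. All circles are open, since no adjusted p was under 0.05, and the widest intervals belong to Marco and Mrc1.

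After LPS, the receptors that had risen had these differences between genotypes. The difference between MK2/3-/- and wt was -0.06 for Clec4e (95% confidence interval -0.80 to 0.67), 0.43 for Msr1 (-0.27 to 1.13), -0.15 for Olr1 (-1.13 to 0.83) and -0.18 for Clec4d (-0.65 to 0.29). The difference between MK2-/- and wt was 0.29 for Clec4e (-0.45 to 1.02), 0.29 for Msr1 (-0.41 to 0.99), 0.14 for Olr1 (-0.85 to 1.12) and 0.04 for Clec4d (-0.42 to 0.51). For Marco and Mrc1 the same comparisons had wider intervals, from -3.22 to 0.96 for Marco and from -1.69 to 1.28 for Mrc1 between MK2/3-/- and wt.

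Olr1 in medium was higher in MK2-/- than in wt BMDM on 3 of 3 arrays, by 1.93 in the fit (SE 0.51, unadjusted p = 0.00119, adjusted p = 1.00). With the wt arrays set to the background floor, the difference was 2.27-fold on this scale. The exact two-sided permutation test gave p = 0.0286, the smallest it can give, and 0.21 after adjustment over the 81 exact tests of the 9 receptors. For MK2/3-/- against wt the fitted difference was 1.09 (unadjusted p = 0.0318, adjusted p = 1.00). Against the same floor the signal was 1.27-fold higher, with 2 of 4 MK2/3-/- arrays well above background. The LPS response of Olr1 differed between MK2-/- and wt by -1.79 on the log2 scale (SE 0.69, unadjusted p = 0.0176, adjusted p = 1.00), with the LPS levels 0.14 apart. Under normexp, the difference between responses was -0.16, and that in medium 0.29. The wt medium arrays were not well above background and lay on a slide of their own.

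Cd36 in medium was 12.84, 12.42, 13.27 and 13.22 in wt cultures 1 to 4, 12.00, 12.96 and 13.39 in MK2-/- cultures 1, 2 and 4, and 13.15, 14.03, 13.65 and 13.94 in MK2/3-/- cultures 1 to 4. The MK2/3-/- arrays of cultures 2, 3 and 4 lay above all wt and MK2-/- arrays. The difference between MK2/3-/- and wt was 0.76 (95% confidence interval 0.02 to 1.49, adjusted p = 1.00, exact permutation p = 0.0857), and against MK2-/- it was 0.91 (0.11 to 1.71, adjusted p = 1.00). After LPS they were 0.46 and 0.43. The Marco difference between MK2/3-/- and MK2-/- BMDM in medium, with all 4 arrays below all 3, was -1.77 (adjusted p = 1.00, exact permutation p = 0.0571), and after LPS it was -2.04 (95% confidence interval -4.13 to 0.05, adjusted p = 0.646, exact permutation p = 0.0571). Neither passed.

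Beyond the 9 receptors, 4 lists of genes around them were read, also chosen with earlier results of these data known. Of 23 other scavenger receptors measured (of 24 listed), 3 rose and 2 fell in wt, 3 and 2 in MK2-/-, and 3 and 0 in MK2/3-/-, with median differences of 0.03, 0.01 and 0.07. Of all genes, 8.26% rose and 8.89% fell in wt, 8.50% and 10.1% in MK2-/-, and 11.9% and 13.0% in MK2/3-/-. Of 36 other lectins (of 37), 3 rose and 1 fell in wt and 4 rose and 0 fell in each deficient genotype, with medians of 0.09, 0.06 and 0.23, against the same shares of all genes. With so few calls, neither count is read as a result about these lists. The lists hold genes that were not well above background on any array: 1 of the scavenger receptors and 6 of the lectins.

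Cd69, a lectin-like activation antigen of leukocytes, rose most of the genes of the 4 lists, from 6.29 ± 0.31 to 14.38 ± 0.96 in wt (SD, n = 4 each, log2 difference 8.09, limma adjusted p = 3.3e-10), with differences of 7.77 in MK2-/- and 8.49 in MK2/3-/-. Clec1a fell in wt by 2.07 (adjusted p = 0.022), where 2 of 4 LPS arrays were well above background, and its differences of -1.87 and -1.64 in MK2-/- and MK2/3-/- did not pass. Mertk, a receptor for dying cells, fell in wt and MK2-/-, with differences of -1.69 (adjusted p = 0.024) and -1.60 (adjusted p = 0.047), and its difference of -1.11 in MK2/3-/- did not pass. Another gene of these lists, named after its values were seen, was the LPS co-receptor Cd14, which rose by 2.04, 1.79 and 1.66 in wt, MK2-/- and MK2/3-/-.

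Of 20 partners and signal carriers of the receptors, all measured, 7 rose and 1 fell in wt, 6 rose and 2 fell in MK2-/- and 9 rose and 1 fell in MK2/3-/-, with medians of 0.29, 0.38 and 0.54. The shares of all genes called higher were 8.26%, 8.50% and 11.9%, and lower 8.89%, 10.1% and 13.0%. Of the 20 listed genes, 19 were well above background on all arrays, whereas the shares also cover genes that were not. Malt1, the paracaspase that acts with Card9 and Bcl10 behind Clec4e, rose by 3.56, 3.69 and 3.76 in the 3 genotypes. Named after their values were seen, Syk rose by 1.37, 1.29 and 1.57 and Bcl10 by 1.11, 1.09 and 0.88. Malt1, Bcl10 and Syk are also used by many other receptors.

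Of 22 genes of uptake and lipid handling, all measured, 3 rose and 3 fell in wt, 4 rose and 5 fell in MK2-/-, and 3 rose and 5 fell in MK2/3-/-, with medians of -0.06, -0.14 and -0.10, where 8.26%, 8.50% and 11.9% of all genes rose and 8.89%, 10.1% and 13.0% fell. Cav1, the coat protein of caveolae, rose by 3.82, 3.39 and 3.49, and Tfeb, a transcription factor of lysosomal genes, fell, with differences of -2.39, -2.15 and -2.55. Abcg1, a cholesterol exporter, fell, with differences of -1.62, -1.51 and -1.07, and Pparg, a nuclear receptor known to drive Cd36, fell by 1.00 in wt, with differences of -1.54 and -1.30 in MK2-/- and MK2/3-/-. Soat1, which esterifies cholesterol, was the single listed gene called between genotypes: it was 1.18 higher in MK2/3-/- than in wt BMDM after LPS (9.90 ± 0.47 in wt and 11.07 ± 0.15 in MK2/3-/-, SD, n = 4 each, SE 0.20, limma adjusted p = 0.0062). In medium the same difference was 0.92 and did not pass (adjusted p = 0.184). Soat1 in MK2-/- BMDM also lay above wt, at 10.83 ± 0.10 after LPS (SD, n = 4). In medium it was 11.38 ± 0.17 in MK2-/- (n = 3), 10.28 ± 0.40 in wt and 11.20 ± 0.15 in MK2/3-/- (n = 4 each).

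**Figure D5:**
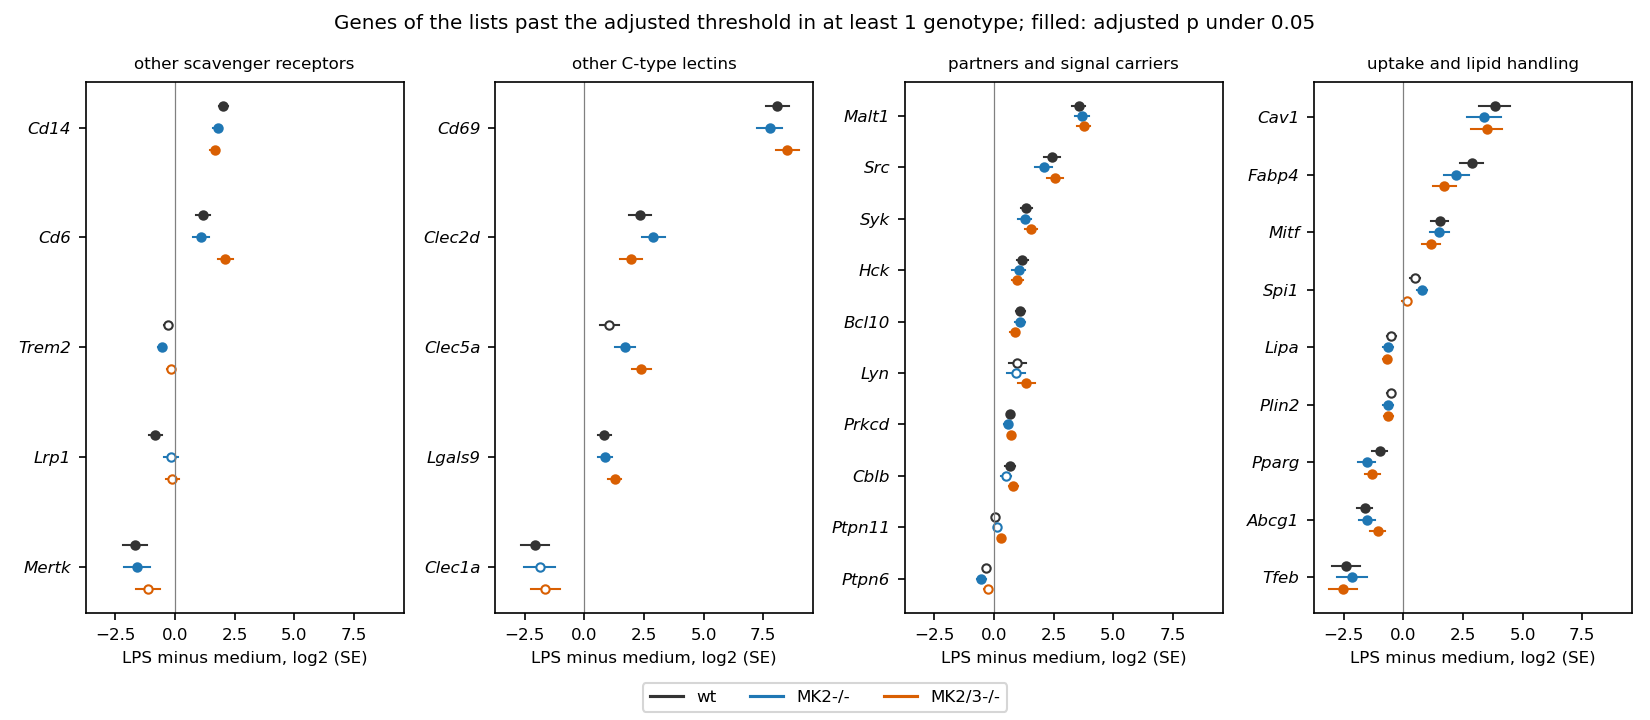
Difference in log2 signal between LPS and medium (horizontal axis, bars are the SE of the limma fit) in wt, MK2-/- and MK2/3-/- BMDM for genes of the 4 lists that passed the adjustment in at least 1 genotype, with filled circles where they passed. Cd69 stands at 7.77 to 8.49 and Tfeb at -2.55 to -2.15, with the other genes shown lying between them.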

How the data were processed

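Signals came from 1-colour Agilent arrays. Per the file headers, the authors extracted them with Agilent Feature Extraction 11.0.1.1 on the build mm9:NCBI37:Jul2007; the deposited intensity is linear, background-subtracted and, on all but 2 arrays, corrected for a gradient. The log2 table deposited by the authors holds quantile-normalized values relative to each probe's median, and correlated with values recomputed here (Pearson r = 1.00, median absolute difference 0.000271).

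Control spots were left out, 258 of 1280663 probe values were missing after spots flagged as outliers were removed, and 55681 probes on 23 arrays were quantile-normalized on the log2 scale. Of these, 32869 had an accession and gave 25998 genes, of which 20887 were named through the RefSeq table. Where several probes read a gene, the one induced most by LPS in wt cells stood for it, as in the study's methods. The 6 groups entered 1 limma fit (R 4.3.3, limma 3.58.1) without covariates, with Benjamini-Hochberg adjustment at 0.05. The fit was tested on simulated data. Exact two-sided permutation tests were added for the receptors. The methods' t-test, other scalings, background corrections, probe choices and blocks, and leaving out each array were run as alternatives.

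Arrays with the same number were paired as cultures of a genotype. The MK2-/- medium array titled replicate 3 was read as number 4 and paired with LPS replicate 4, both from mice of 13 weeks. Ages in the labels were the same in 11 of 11 pairs. All wt cultures and some MK2/3-/- cultures shared their age with another culture of the genotype, so age alone does not fix those pairs. Deviations from group means correlated between 0.359 and 0.776 in the pairs over the 12568 genes that were well above background on all arrays, with 11 of 11 pairs above 0.1. Over all genes 10 of 11 pairs were above 0.1. Arrays with the same number in different genotypes also correlated over the 12568 genes (median 0.373, 17 of 22 pairs above 0.1), against a median of -0.118 for other numbers. The sources used here do not state that the numbers mark a culture. The study gives 4 independent experiments.

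Receptors, lists, markers and motifs were chosen with earlier results of these data known. Of the listed genes, the 3 with the largest rise and fall in wt past the adjustment in each LPS comparison and each gene called between genotypes were to be named. The number of arrays limits the precision. Probe coordinates were not used here, and promoter sequences are from RefSeq, GRCm38.p6. Later time points of LPS were not analysed here. Values of 2 listed genes are not reported here.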

Additional observations from a re-analysis of the deposited data

Results flagged for a closer look

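The Marco signal of wt BMDM in medium (replicate 1) was 7.3, and the nearest of the other 3 arrays had 11.45. The gap was 0.832 of the range of the 4 arrays, just above Dixon's critical value. Groups of 4 arrays were examined for 9 receptors, 45 in all, and chance marks about 1 in 20. The LPS array of the same culture was the lowest of its group as well, with 9.02. Without the medium array, the Marco difference between LPS and medium in wt was -0.32 (adjusted p = 0.878) instead of 0.84, and that between MK2/3-/- and wt in medium was -1.70 (adjusted p = 1.00) instead of -0.53.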

How the results depend on the processing

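Over 108 results (9 receptors in 12 comparisons) and 39 alternatives, 4158 values were computed. The call was the same in 4138, was gained in 19 and lost in 1, and no call changed direction. Leaving out 1 array at a time kept the call in all 2484 values. Olr1, Clec4e and Msr1 passed in the 3 genotypes under all alternatives. Clec4d in wt was lost with the methods' t-test after adjustment (adjusted p = 0.0782). Clec4d in MK2-/- was gained with 75th percentile scaling, the methods' t-test and the replicate number as a block (adjusted p = 0.00251), and in MK2/3-/- with 75th percentile scaling, normexp, the culture block, the replicate number block (adjusted p = 0.00764) and without MK2/3-/- medium replicates 1 and 2 (0.79, adjusted p = 0.0346). Both blocks together also called it in both genotypes and Scarb1 in wt (adjusted p = 0.0022, 0.00635 and 0.0202). The last 2 alternatives were chosen after seeing the data. Scarb1 in wt was gained with normexp (adjusted p = 0.0148), the culture block and the replicate number block (adjusted p = 0.0249). Pairing as a replicate block changed no other receptor call.

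The methods' t-test without adjustment called 1 receptor, against 0 by limma after adjustment, in each of 4 genotype comparisons, so that test and threshold differ together: Olr1 between MK2-/- and wt in medium, Cd36 between MK2/3-/- and wt in medium, and Marco between MK2/3-/- and MK2-/- in medium and after LPS. After adjustment it called none of them. The share of all genes that the unadjusted t-test called is not given here, so its calls are not read as results about the receptors. Scaling to the 75th percentile moved the median LPS difference of all genes to 0.15, 0.20 and 0.06 in wt, MK2-/- and MK2/3-/-, and the genes called higher and lower in wt from 2147 and 2312 to 2391 and 1725. The causes were not tested.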
